A study of Rattus norvegicus with 6 samples.

Results

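The miR-32 seed family comprises the microRNAs whose guide strands share their targeting seed with miR-32-5p: miR-25, miR-32, miR-92a, miR-92b and miR-363. Its members were chosen by name, as every mature sequence of the count table from these 5 stems with any strand or copy suffix, and 10 of 650 miRNAs met that rule. The 10 are 5 guide strands (rno-miR-25-3p, rno-miR-32-5p, rno-miR-92a-3p, rno-miR-92b-3p and rno-miR-363-3p, written below without the rat prefix) and 5 partner strands from the opposite arms of the hairpins. Small RNA was counted in the ipsilateral trigeminal ganglion, where the sensory neurons serving the face have their cell bodies, of Sprague-Dawley rats aged 8 to 10 weeks. The CCI-ION group (3 libraries) had chronic constriction injury of the left infraorbital nerve, in which 2 loose silk ligatures are tied round a branch of the maxillary nerve to model trigeminal neuropathic pain. The sham group (3 libraries) had the same nerve exposed on one side and left unligated. Both groups were sampled on day 14. The ganglion was taken whole, so fewer cells of a type and less of a miRNA per cell cannot be told apart. The labels give no link between libraries and single animals, so the p-values rest on variation from library to library, part of which may be technical.

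A microRNA guides the Argonaute complex to messenger RNAs, and target choice rests mainly on the seed, bases 2 to 8 counted from the 5′ end. miRNAs with the same seed can therefore share targets, and for this family the known targets include Bcl2l11 (Bim), a promoter of cell death. miR-25 belongs to the miR-106b/25 cluster, miR-92a to the miR-17/92 cluster and its X-linked copy, and miR-363 to that X-linked copy, all known from proliferating cells. miR-32 lies alone. Published work on this pain model concerns miR-32-5p in trigeminal sensory neurons and its action on the calcium channel Cav3.2, and the question addressed here is whether miR-32-5p and its relatives differ in level between CCI-ION and sham ganglia on day 14.

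The guide sequences show what the family shares and where its members part; seed bases are in capitals, and all 10 deposited sequences matched a RefSeq mature sequence (build GRCr8).
miR-32-5p: uAUUGCACauuacuaaguugca
miR-25-3p: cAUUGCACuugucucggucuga
miR-92a-3p: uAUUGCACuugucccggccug
miR-92b-3p: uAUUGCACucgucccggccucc
miR-363-3p: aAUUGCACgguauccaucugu
All 5 guides carry AUUGCAC at bases 2 to 8, and no other of the 650 listed sequences did. Beyond the seed the guides part. Aligned from the first base, miR-32-5p differed from miR-25-3p at 8 of the 14 bases after base 8 and from miR-92b-3p at 11 of 14, while miR-363-3p differed from miR-25-3p at 12 of 13. By contrast, miR-92b-3p and miR-92a-3p differed at only 2 of 21 bases (C10U and C21G, positions from the 5′ end, miR-92b-3p base first). Counts of that pair are uncertain because reads could have been split between them. miR-25-3p and miR-92a-3p differed at 3 of 21 bases (C1U, U14C and U18C, miR-25-3p base first).

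The miR-32 hairpin is shown because its 2 arms both gave counted strands, with the 5p arm first and the 3p arm second in capitals.
Mir32 hairpin: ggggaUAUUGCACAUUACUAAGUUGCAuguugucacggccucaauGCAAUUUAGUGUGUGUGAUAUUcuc
In GRCr8 it spans chr5:76391285-76391354 on the minus strand, inside the bounds of the gene Tmem245. The Mir25 hairpin (chr12:22156641-22156724, minus strand) lies inside the bounds of Mcm7, a subunit of the replicative helicase, next to Mir93. Whether these positions are exonic or intronic was not analysed here. Mir92b (chr2:176931653-176931735, minus strand) had no other listed hairpin within 2000 bases on its strand. Mature miR-92a-3p is encoded by 2 hairpins, by Mir92a1 (chr15:98588555-98588632, plus strand) beside Mir17, Mir18a, Mir19a, Mir20a and Mir19b1, and by Mir92a2 (chrX:137342928-137343019, minus strand). Mir363 (chrX:137342777-137342863, minus strand) is the immediate neighbour of Mir92a2. The authors aligned reads to rn6, and these positions are RefSeq's own in GRCr8.

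Levels were expressed on 2 scales. CPM are counts relative to all miRNA counts of a library after TMM scaling, a normalization that centres most miRNAs at no change. RPM are the authors' deposited values, relative to a larger total whose content is not stated. Total miRNA counts ranged from 6420434 to 11014970 in CCI-ION libraries and from 10084327 to 12560545 in sham libraries. They made up 45.4% to 55.8% of the RPM total in CCI-ION libraries and 52.3% to 66.6% in sham libraries. A miRNA at an equal share of miRNA counts is therefore lower in CCI-ION on the RPM scale on average. Single libraries can differ, since CCI-ION library 3 (55.8%) lay above sham library 1 (52.3%). Over all 463 miRNAs tested, the median log2 fold change was 0.01 on the CPM scale and -0.34 on the RPM scale. Markers of the ganglion's neurons (miR-183, miR-96, miR-182 and miR-124, 7 rows, of which miR-96-3p was at 0 in CCI-ION library 3) summed to 34916 to 45820 CPM in CCI-ION libraries and to 35405 to 44980 CPM in sham libraries. miR-182 and miR-183-5p carried that sum. Of the 6 rows tested, 5 had negative log2 fold changes, and 2 were called with the replicate block described below, where 11.7% of all miRNAs were called. miR-182 stood at 19971, 24450 and 29143 CPM in CCI-ION libraries and 18895, 24352 and 25678 CPM in sham libraries, which overlapped. miR-124-3p, a pan-neuronal miRNA, stood at 191.3, 190.5 and 158.2 CPM in CCI-ION libraries and 242.3, 260.8 and 249.9 CPM in sham libraries. Its groups did not overlap, as for 13.8% of all tested miRNAs in CPM, and its part in the results below was not tested.

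The family was dominated by miR-25-3p, and its order held in every library. miR-25-3p stood at 1482, 1398 and 1576 CPM in CCI-ION libraries 1 to 3, against 1271, 1359 and 1440 CPM in sham libraries 1 to 3. It ranked between 57th and 61st of 650 miRNAs in each library. miR-92b-3p, a miRNA known from neural progenitors, stood at 461.8, 282.3 and 317.7 CPM in CCI-ION libraries and 436.1, 341.9 and 417.9 CPM in sham libraries. Its highest values were in the libraries numbered 1 of both groups. miR-363-3p stood at 255.2, 271.5 and 240.8 CPM in CCI-ION libraries and 314.9, 312.5 and 268.0 CPM in sham libraries. The lowest of its sham values lay just under the highest of its CCI-ION values. miR-92a-3p, abundant in blood and endothelium in other settings, was the scarcest guide here, at 41.9, 31.5 and 35.5 CPM in CCI-ION libraries and 43.2, 30.8 and 37.3 CPM in sham libraries.

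Within every library the guides ranked miR-25-3p, miR-92b-3p, miR-363-3p, miR-32-5p and miR-92a-3p from high to low (6 of 6 libraries for each step). miR-25-3p exceeded miR-92b-3p by 2.91 to 4.96 times. miR-92b-3p and miR-363-3p were the only neighbours in that order whose ranges over the 6 libraries overlapped, with ratios of 1.04 to 1.81. miR-363-3p exceeded miR-32-5p by 2.18 to 3.42 times, and miR-32-5p exceeded miR-92a-3p by 2.11 to 3.35 times. All 5 guides are 21 or 22 bases long, so these levels need no scaling by length, but adapters join different small RNAs with unequal efficiency, which limits comparisons between miRNAs.

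**Figure D1:**
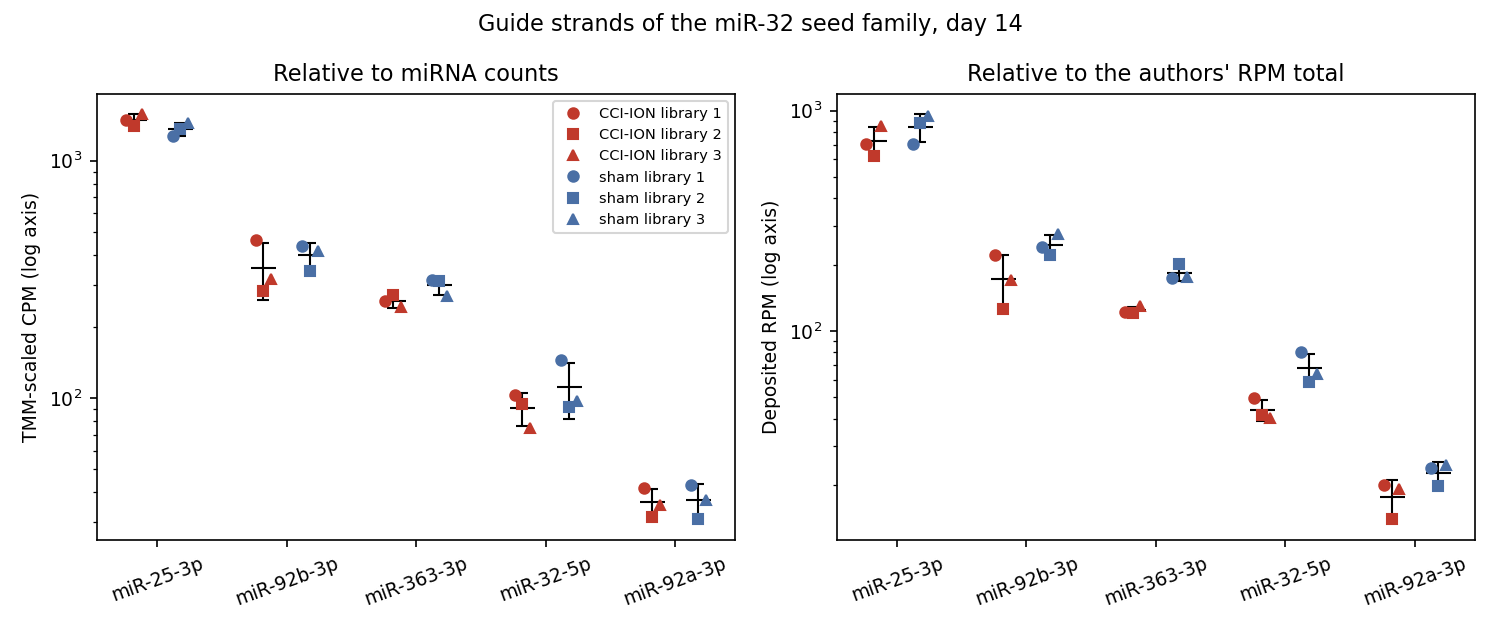
Level of each guide strand in every library, as TMM-scaled CPM (left panel) and as deposited RPM (right panel), both on log axes. Points are libraries, horizontal dashes are group means and bars are SD (n = 3 each); the groups overlap for all 5 guides in CPM, and separate for miR-32-5p and miR-363-3p in RPM.

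miR-32-5p itself was a moderately abundant miRNA of the ganglion, ranked between 151st and 190th of 650 in each library. It had 1200, 585 and 556 counts in CCI-ION libraries 1 to 3, against 1926, 897 and 969 counts in sham libraries. In CPM these were 103.4, 94.1 and 74.8 in CCI-ION libraries and 144.7, 91.3 and 97.3 in sham libraries. Sham library 1 was the highest and CCI-ION library 3 the lowest, and the other 4 libraries intermixed. edgeR did not call it (log2 fold change -0.29 ± 0.22 SE, adjusted p = 0.833). The 95% interval of the fold ran from 0.568 to 1.18 times sham, a range that takes in equal levels. Same-numbered libraries of the 2 groups deviated together and were taken as pairs in the fits with a block and in the ratios within pairs. The main edgeR fit and the permutation tests over all libraries ignored the pairs. With the replicate number as a block the interval was 0.698 to 0.977, which leaves out equal levels when taken alone. The edgeR p was 0.027 unadjusted and 0.145 adjusted over all miRNAs. The variance in the blocked fit had 2 residual degrees of freedom and a median of 54.5 borrowed from all miRNAs, against 4 and 3.3 without the block. Its narrower intervals therefore rest mostly on borrowed variance. Within pairs, CCI-ION stood at 0.715, 1.03 and 0.769 times sham in CPM, below sham in 2 of 3 pairs.

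On the CPM scale none of the other members was called either. Of the 10 members, all of which passed the filter on low counts, edgeR called 0 without the block, where 0.648% of all 463 tested miRNAs were called, and 0 with the block, where 11.7% were called. DESeq2 and limma-voom also called 0 of 10, with and without the block. At an unadjusted p under 0.05 the members numbered 0 without the block (46 of 463 miRNAs overall) and 2 with it, miR-32-5p and miR-363-3p (99 of 463 overall). The log2 fold change was negative for 8 of 10 members, against 48.8% of all miRNAs, with a median of -0.22. With the RPM totals as library sizes it was negative for all 10, against 84.9% of all miRNAs, so the 2 positive members turned. On the CPM scale the sign depended on single libraries for miR-92a-3p and for the low strands miR-363-5p and miR-92a-1-5p. None of the 10 members had CCI-ION and sham values apart in CPM, against 13.8% of all miRNAs.

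miR-25-3p, the most abundant guide, was the only one with a positive log2 fold change in CPM (0.13 ± 0.13 SE, 1.1 times sham, 95% interval 0.893 to 1.34, edgeR adjusted p = 0.899). It was above sham in 3 of 3 pairs, by 1.17, 1.03 and 1.09 times, and its sign turned on the RPM scale (-0.21). miR-363-3p averaged 255.8 ± 15.4 CPM in CCI-ION and 298.5 ± 26.4 CPM in sham (SD, n = 3 each; log2 fold change -0.22 ± 0.14 SE, edgeR adjusted p = 0.776) and lay below sham in 3 of 3 pairs. miR-92b-3p averaged 353.9 ± 95.1 CPM in CCI-ION and 398.6 ± 49.98 CPM in sham (-0.17 ± 0.22, edgeR adjusted p = 0.923). miR-92a-3p averaged 36.3 ± 5.23 CPM in CCI-ION and 37.1 ± 6.18 CPM in sham (-0.03 ± 0.19, edgeR adjusted p = 0.993), with a 95% interval of 0.721 to 1.33 times sham.

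On the deposited RPM scale the picture for miR-32-5p and miR-363-3p was of separated groups. miR-32-5p stood at 49.5, 41.8 and 40.3 RPM in CCI-ION libraries and 80.2, 58.9 and 64.0 RPM in sham libraries. Every CCI-ION library lay under every sham library, and the ratio within pairs was 0.617, 0.709 and 0.630. miR-363-3p stood at 122.0, 120.5 and 129.8 RPM in CCI-ION libraries and 174.5, 201.6 and 176.3 RPM in sham libraries, again without overlap. For each of these miRNAs the two-sided exact permutation p was 0.1, the smallest that 3 against 3 allows, and 0.25 after adjustment over the 10 members. That test ignored the pairs, and no paired permutation test was run on the RPM values. miR-92b-3p, at 220.8, 125.3 and 171.2 RPM in CCI-ION libraries against 241.7, 220.6 and 274.9 RPM in sham libraries, overlapped by less than 1 RPM. miR-92a-3p (20.03, 14.0 and 19.1 RPM in CCI-ION libraries and 23.9, 19.9 and 24.6 RPM in sham libraries) overlapped likewise. miR-25-3p, at 708.5, 620.4 and 849.4 RPM in CCI-ION libraries and 704.2, 876.6 and 946.9 RPM in sham libraries, overlapped broadly.

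In all, 4 of 10 members lay lower in CCI-ION without overlap on the RPM scale (miR-25-5p, miR-32-3p, miR-32-5p and miR-363-3p), against 29.4% of all tested miRNAs. With the RPM totals as library sizes, edgeR called 0 members lower (1.08% of all miRNAs; lowest member adjusted p 0.157), although 3 members had an unadjusted p under 0.05 (85 of 463 overall). With the replicate block it called 4 members lower, against 32.8% of all miRNAs. That is near the share of all miRNAs and is not a result about the family. The 4 called were miR-32-5p (log2 fold change -0.62 ± 0.15 SE, edgeR adjusted p = 0.00288), miR-363-3p (-0.57 ± 0.16, adjusted p = 0.00671), miR-92b-3p (-0.54 ± 0.16, adjusted p = 0.0117) and miR-32-3p (-0.64 ± 0.24, adjusted p = 0.035). The median of all miRNAs in that fit was -0.35. With the block there are 2 residual degrees of freedom, so these SEs and p-values also use variance borrowed from all miRNAs. Without both libraries numbered 3 none of the 4 was called (miR-32-5p adjusted p = 0.192), where 12 miRNAs were called in all.

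**Figure D2:**
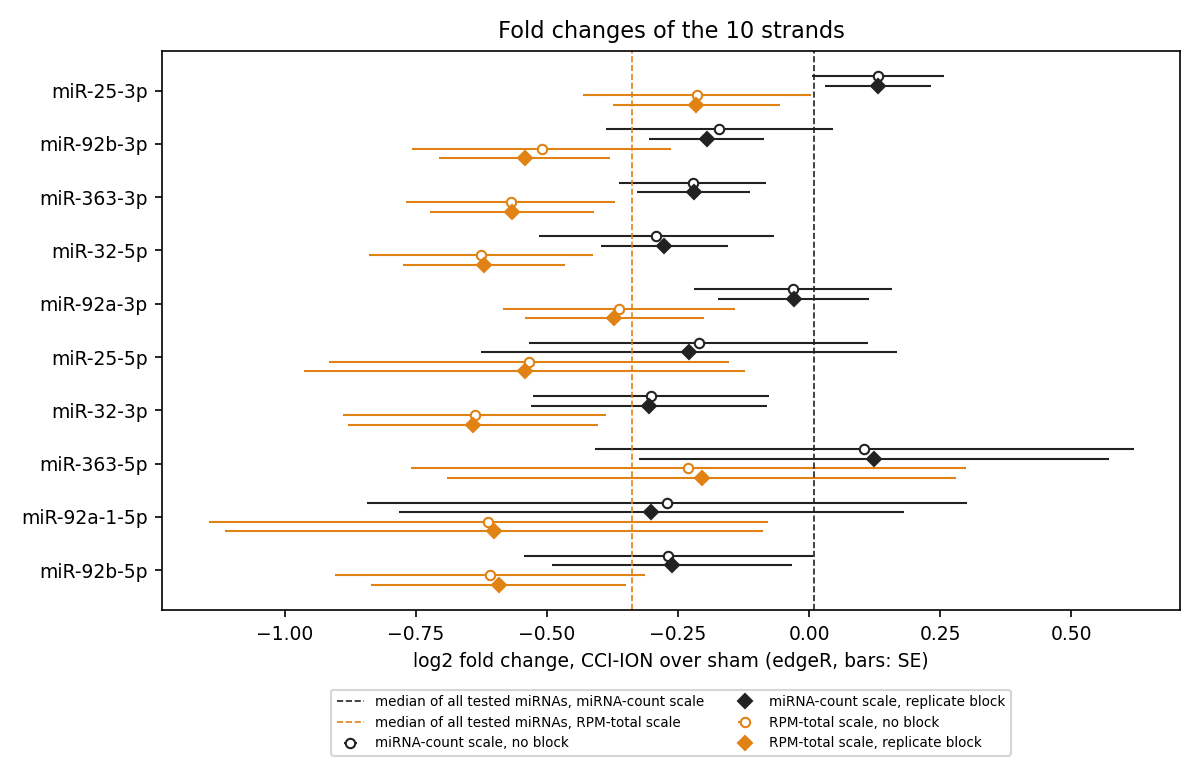
log2 fold change of CCI-ION over sham for the 10 members (edgeR; bars are SE), on the CPM scale in black and with the RPM totals as library sizes in orange, without the replicate block (open circles) and with it (filled diamonds). Dashed lines mark the medians of all tested miRNAs, 0.01 and -0.34; each member shifts with its line, and the partner strands with few counts have the widest bars.

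Shares within the family do not depend on either scale. miR-25-3p made up 66.9% ± 3.51 of the summed guide counts in CCI-ION and 61.6% ± 3.55 in sham (SD, n = 3 each; two-sided exact permutation p = 0.3). miR-32-5p made up 4.41%, 4.53% and 3.33% in CCI-ION libraries and 6.55%, 4.28% and 4.30% in sham libraries. Sham library 1 stood above the rest, and without it the difference of -0.95 percentage points shrank to -0.20 points. The group means of miR-32-5p, 4.09% ± 0.66 in CCI-ION and 5.04% ± 1.3 in sham (n = 3 each), gave an exact permutation p of 0.6. miR-363-3p made up 11.6% ± 1.31 in CCI-ION and 13.6% ± 1.5 in sham (n = 3 each; exact permutation p = 0.2), and miR-92b-3p 15.8% ± 3.38 in CCI-ION and 18.1% ± 1.90 in sham (n = 3 each; exact permutation p = 0.3). miR-92a-3p held 1.63% ± 0.14 in CCI-ION and 1.68% ± 0.26 in sham (n = 3 each; exact permutation p = 0.8). Adjusted over the 5 guides, these permutation p-values ran from 0.5 to 0.8, and the groups overlapped for all 5. Within the replicate pairs the share of miR-25-3p was higher in CCI-ION in 3 of 3, and the shares of miR-363-3p and miR-92b-3p were lower in 3 of 3, with miR-92b-3p nearly equal in pair 1 (19.70% in CCI-ION and 19.74% in sham). miR-32-5p and miR-92a-3p had lower shares in CCI-ION in 2 of 3 pairs each. Over sign flips within pairs, an alternative chosen after seeing the data, the two-sided exact p was 0.25 for each of miR-25-3p, miR-363-3p and miR-92b-3p, the smallest that 3 pairs allow. The 5 guides together held 0.222% ± 0.023 of miRNA counts in CCI-ION and 0.221% ± 0.014 in sham (n = 3 each). Their sum was 1084 ± 147 RPM in CCI-ION and 1363 ± 132 RPM in sham (n = 3 each).

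**Figure D3:**
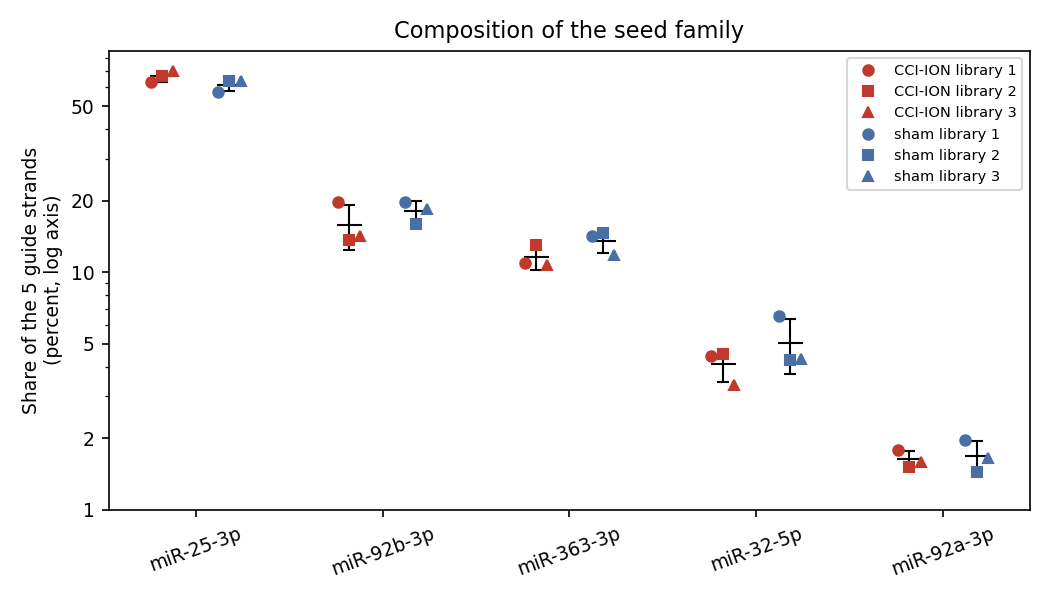
Share of each guide strand in the summed counts of the 5 guides, in percent on a log axis, for each CCI-ION and sham library. Dashes are means and bars SD (n = 3 each); the groups overlap for every guide, and the miR-32-5p share of 6.55% in sham library 1 stands above the other 5 libraries.

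The partner strands, usually degraded when the guide is loaded, bear different seeds. Each of the 5 partner strands had its own. miR-32-3p was the partner with the largest share of its hairpin, 7.79% ± 0.33 of the counts of both arms in CCI-ION and 7.93% ± 0.61 in sham (SD, n = 3 each; exact permutation p = 0.8 on the log2 ratio of the arms). It had 102, 47 and 49 counts in CCI-ION libraries and 151, 83 and 85 counts in sham libraries. In CPM these were 8.79, 7.56 and 6.59 in CCI-ION libraries and 11.3, 8.45 and 8.53 in sham libraries, which overlapped, with a log2 fold change of -0.30 ± 0.23 (SE, edgeR adjusted p = 0.833), close to that of miR-32-5p. In RPM they were 4.205, 3.35 and 3.55 in CCI-ION libraries and 6.28, 5.45 and 5.61 in sham libraries, without overlap. miR-92b-5p stood at 9.31, 6.60 and 6.86 CPM in CCI-ION libraries and 10.2, 6.41 and 10.9 CPM in sham libraries, with overlap, and was 2.12% ± 0.15 of its hairpin in CCI-ION and 2.23% ± 0.36 in sham (n = 3 each; exact permutation p = 0.7). The other partner strands were near the limit of detection. miR-25-5p, with 5 to 16 counts in CCI-ION libraries and 11 to 21 in sham libraries, was 0.076% ± 0.018 of its hairpin in CCI-ION and 0.099% ± 0.022 in sham (n = 3 each; exact permutation p = 0.3). miR-363-5p had 19, 2 and 9 counts in CCI-ION libraries and 11, 14 and 9 in sham libraries, or 0.419% ± 0.269 of its hairpin in CCI-ION and 0.351% ± 0.097 in sham (n = 3 each; exact permutation p = 1). miR-92a-1-5p, the strand that comes from Mir92a1 and not from the X-linked copy, had 13, 5 and 2 counts in CCI-ION libraries and 15, 4 and 12 in sham libraries. After adjustment over the 4 hairpins with both arms all of these permutation p-values were 1. The limit that a count of 0 allows, 3 counts, stood at 0.239 to 0.467 CPM before TMM scaling and covers counting error only.

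Over the 6 libraries the closest profile to miR-32-5p among the 462 other tested miRNAs was that of miR-32-3p, its own partner strand. Likeness was measured as the root mean square difference of log2 CPM after each miRNA's mean was removed, and it was 0.084 for miR-32-3p, against a median of 0.397 over all miRNAs. The points share libraries and their scaling, so this is a description. Both strands were highest in sham library 1 and lowest in CCI-ION library 3. The next 5 were outside the family: miR-138-5p (0.150), a neuronal miRNA, miR-181c-5p (0.158), miR-101a-3p (0.159), miR-23b-3p (0.161) and miR-132-5p (0.162), from an activity-regulated neuronal hairpin. Of the other guides, miR-92a-3p ranked 18th in likeness to miR-32-5p, miR-363-3p 24th, miR-92b-3p 35th and miR-25-3p 203rd. In the other hairpins the partner strand ranked 17th for miR-92b-3p (0.153), 227th for miR-25-3p and 423rd for miR-363-3p, the last 2 with partners of few counts.

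**Figure D4:**
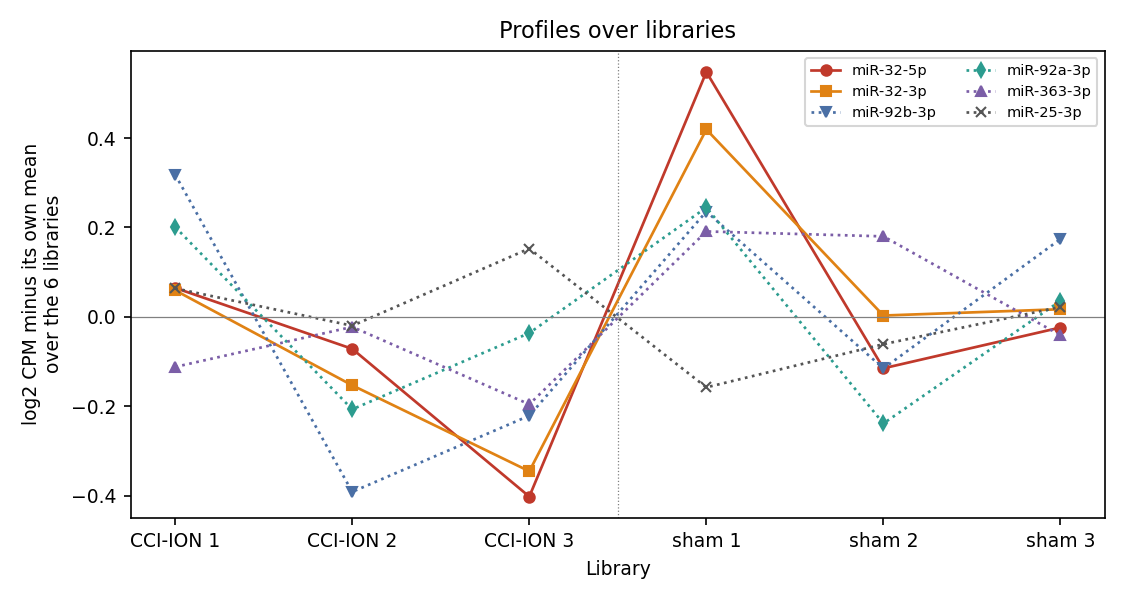
log2 CPM of each strand minus its own mean over the 6 libraries, CCI-ION libraries left of the dotted line and sham libraries right of it; lines only join the points of 1 miRNA. miR-32-5p and miR-32-3p run together, highest in sham library 1 and lowest in CCI-ION library 3, while miR-25-3p is lowest in sham library 1.

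The libraries numbered 1 stood apart in several marker lists. The red cell miRNAs (miR-451, miR-144 and miR-486, 5 rows, of which miR-451-3p was at 0 in library 2 of each group) summed to 799, 469 and 408 CPM in CCI-ION libraries 1 to 3 and to 771, 285 and 403 CPM in sham libraries 1 to 3. miR-486 carried most of that sum. Single rows differed from it: miR-451-5p was highest in CCI-ION library 2 (190.6 CPM, against 134.9 CPM in CCI-ION library 1), and miR-144-5p was 18.4, 17.7 and 17.2 CPM in CCI-ION libraries 1 to 3. The neuron sum was lowest in the libraries numbered 1, at 34916 CPM in CCI-ION and 35405 CPM in sham, and at 42058 to 45820 CPM in the other 4 libraries. The glia sum was lowest within each group in the same libraries, at 4927 CPM in CCI-ION and 5758 CPM in sham. miR-32-5p, miR-92a-3p and miR-92b-3p were highest in the libraries numbered 1 within each group, and the part of red cells, neurons and glia in their levels was not tested. Leukocyte miRNAs (miR-142 and miR-223, 4 rows, all with positive log2 fold changes) summed to 92.5 to 110.5 CPM in CCI-ION libraries and 54.9 to 89.9 CPM in sham libraries. Myelinating glia miRNAs (miR-219a and miR-338, 5 rows, of which miR-219a-5p was at 0 in library 2 of each group) summed to 4927 to 5985 CPM in CCI-ION libraries and 5758 to 6715 CPM in sham libraries. miR-338 carried that sum, and 2 of 4 rows tested had negative log2 fold changes. miR-219a-1-3p went the other way, at 17.3, 13.2 and 14.9 CPM in CCI-ION libraries and 6.01, 4.27 and 4.02 CPM in sham libraries, without overlap. Muscle miRNAs (miR-1, miR-133a, miR-133b and miR-206, 5 rows, all with negative log2 fold changes, miR-1b not among them) summed to 111.6 to 206.1 CPM in CCI-ION libraries and 175.8 to 250.1 CPM in sham libraries. The part of leukocytes and muscle was not tested either.

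The neighbours of these miRNAs were listed by cluster. Of 15 listed neighbours (stems miR-106b, miR-93, miR-17, miR-18a, miR-19a, miR-19b, miR-20a and miR-20b), 13 were tested, and edgeR called 0 without the block and 1 with it, against the shares of all miRNAs given above. Their median log2 fold change was 0.10, with 6 of 13 negative. The 4 strands next to miR-25 ranged from -0.12 to 0.18. The 7 tested strands listed under the miR-17/92 cluster, which also encodes miR-92a, had a median of 0.44 and ranged from -0.12 to 0.49. The median strand was miR-19b-3p, which has a hairpin in this cluster (Mir19b1) and another beside Mir363 on the X chromosome (Mir19b2). Its value therefore belongs to neither cluster alone. Strands of 2 numbered copies, miR-17-1-3p and miR-17-2-3p, are also listed under the miR-17/92 cluster. miR-17-2-3p gave the low end of that range (-0.12), and the place of its hairpin was not analysed here. The 2 strands listed under the X-linked cluster, both of miR-20b, lay at -0.30 and -0.11, and the difference between clusters was not tested. The 2 most abundant neighbours were miR-93-5p, at 250.1 ± 12.1 CPM in CCI-ION and 220.2 ± 7.87 CPM in sham (n = 3 each), and miR-106b-3p, at 196.7 ± 14.9 CPM in CCI-ION and 183.8 ± 17.0 CPM in sham (n = 3 each). The strand that rose with the block was miR-20a-5p, of the miR-17/92 cluster, at 134.3 ± 24.8 CPM in CCI-ION and 96.1 ± 21.2 CPM in sham (SD, n = 3 each; log2 fold change with the block 0.49 ± 0.12 SE, edgeR adjusted p = 0.00134, and 0.496 without the block). With the block and the RPM totals that call was lost (0.15 ± 0.15 SE, edgeR adjusted p = 0.455). In that fit 3 of the 13 neighbours were called lower and 0 higher, where 32.8% of all miRNAs were called lower. That count is not a result about the neighbours. The sequences of miR-20a-5p and miR-17-5p are close, so the counts of both are uncertain. Base differences were counted here only for the guides of the family, so other neighbours may share that limit.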

How the data were processed

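The authors deposited whole-number counts for 650 mature miRNAs in 6 libraries and RPM values per library. The submitters' processing notes name cutadapt 1.14, Bowtie 1.1.1 and the build rn6. The sources used here give neither the read counter nor the miRNA annotation. The total behind each deposited RPM column was taken as the median ratio of count to RPM, and it turned 100% of RPM values back into the whole counts within 0.01 read. A count test on the recovered reads is therefore the same test, with 3 calls.

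Counts were tested with edgeR 4.0.16 (quasi-likelihood, robust, TMM, filterByExpr) in R 4.3.3, with group as the term and Benjamini-Hochberg adjustment over 463 miRNAs (187 were left out) at 0.05. SE is the absolute log2 fold change over the root of F. DESeq2 1.42.0, limma-voom (limma 3.58.1), other scalings, no filter and left-out libraries were alternatives. The procedure was tested on simulated counts. Single values were compared with two-sided exact permutation tests in scipy 1.17.1, which ignored the replicate numbers except in the sign flips within pairs. Libraries with the same replicate number, from the sample titles, correlated in their deviations from the group means at 0.664, 0.591 and 0.457. Other combinations ranged from -0.614 to 0.167. Deviations cancel out within a group, so positive values for same numbers push the other combinations down. Same numbers were taken as pairs in the block, the comparisons within pairs and the sign flips, and this check used the same data as the fits. The sources used here do not say what the number stands for. Every 2 libraries of a group differed by more than sampling noise (ratio of chi-square to its degrees of freedom, 164.6 to 732). Guides that differ from another listed miRNA at 2 bases or fewer, over at least 19 bases, are called uncertain.

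Named miRNAs were all members by the name rule, their cluster neighbours (called ones and the 2 most abundant) and the 5 profiles outside the family closest to miR-32-5p. Single rows of the marker lists were named beside their sums, after seeing the data. Members, lists and tests were chosen with earlier results of these data known.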

Additional observations from a re-analysis of the deposited data

How the results depend on the processing

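With 3 libraries a group, the spread between libraries limited precision more than depth did for the guides, while miR-25-5p, miR-363-5p and miR-92a-1-5p rest on 2 to 21 counts a library. Over all miRNAs edgeR made 3 calls, against 6 with the RPM totals as library sizes, 6 without a filter and 9 with DESeq2. The replicate block gave 54 calls with edgeR, 44 with DESeq2, 56 with limma-voom and 158 with the RPM totals. Leaving out 1 library gave 1 to 7 calls. Fits with the block gave 45, 31 or 5 calls when pair 1, 2 or 3 was dropped, and with the RPM totals added, a setting chosen after seeing the data, 125, 129 or 12. Family members called numbered 4 with the block and the RPM totals, and 3, 3 or 0 without the libraries numbered 1, 2 or 3. The log2 fold change of miR-32-5p was -0.62 with the block and the RPM totals, and -0.58, -0.68 or -0.60 without those numbers. On the CPM scale it ran from -0.42 to -0.054 with 1 library left out, nearest to 0 without sham library 1, and was never called. The log2 difference of the summed guides was -0.33 on the RPM scale, against 0.01 on the CPM scale. Signs turned for uncalled members, and the cause was not tested. miR-25-3p was at -0.21 with the RPM totals and -0.22 with the block added, then -0.33, -0.074 or -0.24 without the libraries numbered 1, 2 or 3. miR-363-5p was at -0.23 with the RPM totals, -0.089 with limma-voom, -0.076 with DESeq2 and the block, -0.015 with limma-voom and the block, and -0.21 with the RPM totals and the block. With 1 library left out it ran from -0.38 to 0.48, with the block and both libraries of a number left out from -0.54 through -0.028 to 0.75, and with the RPM totals added from -0.94 through -0.39 to 0.50. miR-92a-1-5p ran from -0.82 to 0.11 with 1 library left out and was at 0.27 in the blocked fit that dropped pair 3. It could not be tested without the libraries numbered 1, where the filter removed it. miR-92a-3p was at 0.062 with upper quartile factors and ran from -0.15 to 0.093 with 1 library left out. The replicate block changed no member's call on the CPM scale.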
